A study of Mus musculus with 21 samples.

Results

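Pi15, Prss35, Cyyr1 and Adgra2 are 4 of the 23713 genes in a table of RNA counts from mouse tail keratinocytes, the cells of the epidermis. They were chosen by their measured RNA levels, for a large rise in libraries from tumour-bearing skin over those from control skin, with no numeric threshold given. The rise itself is therefore given below as a description, with no test, and the tests concern other genes.

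The series covers 3 mouse models of basal cell carcinoma (BCC), named SmoM2, Gnas-eKO and PKI, each with its own tumour-free control mice (Con). There were 3 Con and 4 BCC libraries in each model, which makes 6 groups and 21 libraries. Skin was taken at day 29 after tumour induction in SmoM2, at day 42 in Gnas-eKO and at day 57 in PKI, and the labels give batch A to SmoM2, B to Gnas-eKO and C to PKI. Model, day and batch therefore cannot be told apart. As background, SmoM2 denotes constitutively active Smoothened, Gnas is the gene of the G protein subunit that stimulates cAMP synthesis, and PKI proteins inhibit protein kinase A. Promoters, Cre lines, strain, age and the genotype of the controls are not named in the labels. In the column headers the animal names of SmoM2 BCC begin with BF. Those of SmoM2 Con begin with TJ, as do those of Gnas-eKO Con and BCC. The meaning of these prefixes is not stated, and in SmoM2 they cannot be told apart from the tumour.

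BCC is a skin tumour driven by Hedgehog signalling, in which Smoothened turns on the Gli transcription factors, and Patched (Ptch1) is both the inhibitory receptor and a target gene. Protein kinase A holds Gli proteins back, and the stimulatory G protein activates it through cAMP. Pi15 (peptidase inhibitor 15) is a secreted protein of the CAP superfamily of cysteine-rich secretory proteins. Prss35 is a secreted protein with a trypsin-like fold that lacks the catalytic serine, and Prss23 is its closest relative. Cyyr1 (cysteine and tyrosine rich 1) is a small membrane protein of the Shisa-like group whose function is little known. Adgra2, also called Gpr124, is an adhesion G protein-coupled receptor that works with the membrane anchored protein Reck to let cells, best known from brain blood vessels, respond to the ligands Wnt7a and Wnt7b.

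Coordinates below are from GENCODE M21 on the mouse build GRCm38. Pi15 (ENSMUSG00000067780.3) lies at chr1:17601901-17630939 on the plus strand and has 6 exons. Prss35 (ENSMUSG00000033491.13) lies at chr9:86743649-86758443 on the plus strand, with up to 3 exons. Cyyr1 (ENSMUSG00000041134.15) spans chr16:85421533-85553397 on the minus strand, with up to 4 exons. Adgra2 (ENSMUSG00000031486.15) lies at chr8:27085583-27123436 on the plus strand, with up to 19 exons. The members thus sit on 4 chromosomes. Promoter sequences from RefSeq (GRCm38.p6) were matched for 2 of the 4, Prss35 and Cyyr1. They are shown because the members rise together with Hedgehog target genes. Both runs read 5′ to 3′ on the gene's own strand, and no letter is in capitals because no searched motif was found in them. The Prss35 run covers the 250 bases before its RefSeq start, chr9:86743383-86743632 on the plus strand. The Cyyr1 run is chr16:85550418-85550623 on the minus strand, 206 bases, and leaves out the 44 bases nearest the RefSeq start, which fall in the annotated exon of a coding transcript. The printed run is itself not free of transcripts: it lies within an annotated exon of a non-coding Cyyr1 transcript with a retained intron, and its upstream end also within one of a processed transcript, both of which start further upstream.
Prss35 promoter: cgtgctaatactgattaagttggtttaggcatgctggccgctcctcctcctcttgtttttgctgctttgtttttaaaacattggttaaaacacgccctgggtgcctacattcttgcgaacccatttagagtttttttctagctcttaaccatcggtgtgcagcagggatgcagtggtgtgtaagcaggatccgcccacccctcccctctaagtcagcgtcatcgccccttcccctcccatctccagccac
Cyyr1 promoter: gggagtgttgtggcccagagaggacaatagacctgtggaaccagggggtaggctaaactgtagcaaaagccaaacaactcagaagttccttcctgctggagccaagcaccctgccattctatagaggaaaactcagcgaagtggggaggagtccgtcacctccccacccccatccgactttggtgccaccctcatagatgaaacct

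Each whole window of 250 bases was searched on both strands for the Gli motif GACCACCCA, for the cAMP response element TGACGTCA and for TATAAA, none of which contains another. An exact Gli motif was in 0 of the 2 member windows and in 74 of 32851 RefSeq windows of that length (0.225%). With up to 1 mismatch, 5.79% of all windows held it, and so did the window of Cyyr1, in the 44 bases left out above. There the substitution A2G separates the motif from the site, with positions counted from the 5′ end of the motif. In the stretch of 25 bases below, shown because it holds this match and read on the strand of the gene, capitals mark the 9 bases of the site at chr16:85550404-85550412, with the motif itself on the opposite strand.
Cyyr1 near-match: cctgaaccTGGGTGGCCaaggacgc
The cAMP element was in 1.55% and TATAAA in 12.4% of all windows, and neither was in the windows of Prss35 or Cyyr1. These matches describe letters in a window, not binding.

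Levels are given as CPM, the count of a gene scaled to the TMM-adjusted size of its library, with library totals of 16645858 to 22251132 counts, at which 3 counts correspond to 0.134 to 0.189 CPM. The labels were checked on the altered genes. Smo rose from 103 ± 8.63 CPM in SmoM2 Con to 298 ± 12.3 in SmoM2 BCC (SD, n = 3 and 4, edgeR adjusted p = 1.13e-06). It was also higher in BCC than in Con in PKI (149 ± 12.3 and 104 ± 8.02 CPM, adjusted p = 0.00187). In Gnas-eKO it was at 194 ± 38.8 and 109 ± 3.7 CPM (adjusted p = 0.0503). The log2 rise was largest in SmoM2 (1.55, against 0.85 in Gnas-eKO and 0.53 in PKI), but a rise of Smo alone does not single out that label. In Gnas-eKO the Gnas level was 174 ± 3 in Con and 80.4 ± 28.1 in BCC, a log2 difference of -1.11 that missed the threshold (adjusted p = 0.0647; 0.0345 without Gnas-eKO BCC replicate 2, 0.00137 by DESeq2 and 0.00022 in a joint fit of all 21 libraries). Pkia, the gene of an endogenous PKI protein, was at 4.31 ± 0.636 CPM in PKI Con and 2.77 ± 0.803 in PKI BCC (adjusted p = 0.0956), which does not check a construct whose sequence is not given. Summed CPM of 9 keratinocyte marker genes was 28300 to 73600 in every library. It was lower in BCC than in Con without overlap in SmoM2 (37600 to 52900 against 54500 to 71000) and in Gnas-eKO (28300 to 49000 against 56000 to 66800). In PKI the groups overlapped (45700 to 73600 in BCC and 49700 to 67200 in Con). Gnas-eKO BCC replicate 2 stood apart from the other 3 tumour libraries of its group, and the members' values, the calls it changes and the differences between models that involve Gnas-eKO are also given without it.

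Pi15 had its highest levels in SmoM2 tumours. It was 6.34, 7.92 and 4.11 CPM in SmoM2 Con replicates 1 to 3, and 437, 475, 392 and 384 CPM in SmoM2 BCC replicates 1 to 4. In Gnas-eKO it was 7.5, 2.68 and 4.39 CPM in Con and 153, 19.9, 143 and 140 CPM in BCC. PKI Con held 3.9, 3.66 and 4.68 CPM, and PKI BCC 83.4, 55.3, 72 and 54.1 CPM. Every tumour library lay above every control library of its model, the 4 SmoM2 BCC libraries were the highest of the 21, and Gnas-eKO BCC replicate 2 was the lowest tumour library. The log2 fold change from the edgeR fit was 6.12 (SE 0.22) in SmoM2, 4.56 (SE 0.75) in Gnas-eKO and 4.03 (SE 0.20) in PKI, that is 69.7-fold, 23.5-fold and 16.3-fold. Group means ran from 422 ± 42.4 CPM in SmoM2 BCC through 114 ± 62.9 in Gnas-eKO BCC to 66.2 ± 14.1 in PKI BCC (SD, n = 4 each). Gnas-eKO and PKI tumours overlapped in range, since Gnas-eKO BCC replicate 2 lay below the PKI tumours and the other 3 above them. The 3 control groups overlapped as well.

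Prss35 was highest in Gnas-eKO tumours. It had 0.827, 1.2 and 4.81 CPM in SmoM2 Con and 54.4, 53.1, 57.9 and 57.7 CPM in SmoM2 BCC. Gnas-eKO Con held 1.27, 0.335 and 1.23 CPM, and Gnas-eKO BCC 98.3, 21.2, 34.4 and 145 CPM. In PKI the values were 1.77, 1.58 and 1.92 CPM in Con and 19.6, 15.5, 25.6 and 27.8 CPM in BCC. The 4 SmoM2 tumour libraries were close to each other, while those of Gnas-eKO spread on both sides of them, with replicates 1 and 4 high and 2 and 3 low. The log2 fold change was 4.64 (SE 0.54), or 25-fold, in SmoM2, 6.30 (SE 0.87), or 78.6-fold, in Gnas-eKO and 3.66 (SE 0.24), or 12.6-fold, in PKI. One control library sets the SmoM2 value: without SmoM2 Con replicate 3, which had 89 Prss35 counts against 18 and 21 in the others, the rise was 5.81 on the log2 scale, or 56.1-fold. Mean levels were 74.8 ± 57.7 CPM in Gnas-eKO BCC, 55.8 ± 2.4 in SmoM2 BCC and 22.1 ± 5.61 in PKI BCC (SD, n = 4 each). Gnas-eKO BCC overlapped both other tumour groups, and all SmoM2 BCC libraries lay above all PKI BCC libraries. Among controls, the Gnas-eKO libraries lay below the PKI libraries, and SmoM2 overlapped both.

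Cyyr1 was close to the limit of detection in control skin. Its level was 0.276, 0.344 and 0.433 CPM in SmoM2 Con, 0.355, 0.503 and 0.307 CPM in Gnas-eKO Con and 0.405, 0.568 and 0.3 CPM in PKI Con, from 5 to 9 counts per library. SmoM2 BCC libraries held 25.6, 24.9, 23.8 and 24.2 CPM, Gnas-eKO BCC libraries 12.4, 1.98, 10.1 and 12.6 CPM, and PKI BCC libraries 2.77, 1.45, 3.25 and 2.25 CPM. Tumour libraries were again above the controls of their model, SmoM2 was above both other models in every library, and Gnas-eKO BCC replicate 2 fell within the PKI range. The log2 fold change was 6.14 (SE 0.17), or 70.3-fold, in SmoM2, 4.58 (SE 0.69), or 23.8-fold, in Gnas-eKO and 2.52 (SE 0.40), or 5.73-fold, in PKI. Group means were 24.6 ± 0.805, 9.27 ± 4.99 and 2.43 ± 0.772 CPM in that order (SD, n = 4 each), and SmoM2 BCC had the smallest spread of any member in any group, with an SD of 3.27% of the mean.

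Adgra2 had its highest and most variable levels in Gnas-eKO tumours and low levels in PKI tumours. SmoM2 Con held 0.276, 0.459 and 0.649 CPM and SmoM2 BCC 22.7, 18.9, 20.5 and 17.7 CPM. In Gnas-eKO the values were 0.608, 0.391 and 0.664 CPM in Con and 45.3, 3.65, 10.1 and 40 CPM in BCC. PKI Con had 0.963, 0.379 and 0.3 CPM, and PKI BCC 2, 2.84, 4.09 and 4.5 CPM. Replicates 1 and 4 of Gnas-eKO BCC were the highest of all 21 libraries, replicate 3 lay between the SmoM2 and PKI tumours, and replicate 2 lay within the PKI tumours. The log2 fold change was 5.46 (SE 0.24), or 43.9-fold, in SmoM2, 5.47 (SE 0.98), or 44.4-fold, in Gnas-eKO and 2.58 (SE 0.46), or 5.99-fold, in PKI. The PKI value rests on 5 to 19 counts per control library and was 9.78-fold without PKI Con replicate 1. Mean tumour levels were 24.7 ± 20.9 CPM in Gnas-eKO, 19.9 ± 2.12 in SmoM2 and 3.36 ± 1.15 in PKI (SD, n = 4 each).

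**Figure D1:**
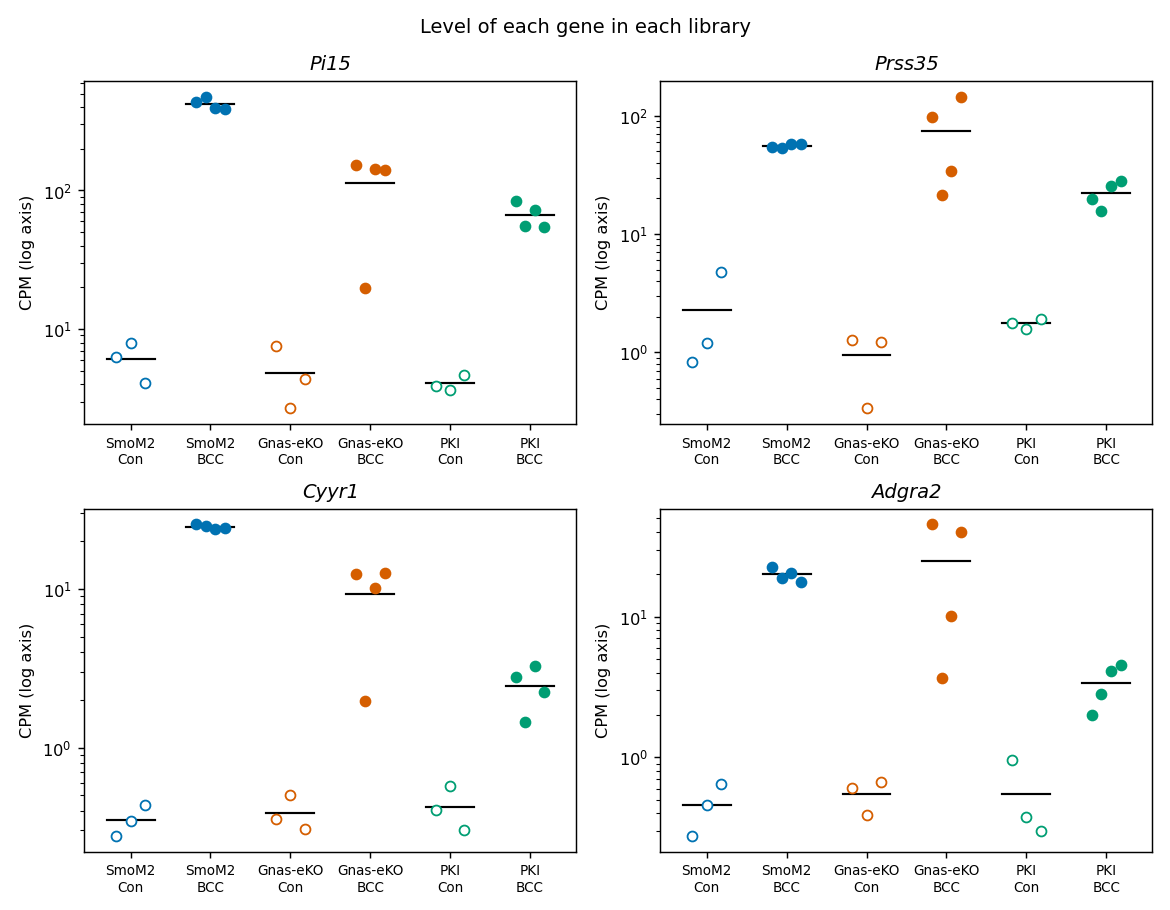
Level of Pi15, Prss35, Cyyr1 and Adgra2 in each of the 21 libraries, in CPM on a log axis; open circles are Con libraries, filled circles BCC libraries, and bars the mean of a group (n = 3 Con, n = 4 BCC). In each panel all 4 BCC circles of a model lie above its 3 Con circles, and the widest tumour spread is that of Gnas-eKO.

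For each of the 4 members and in each of the 3 models, all 4 BCC libraries lay above all 3 Con libraries. Over all genes tested, that held for 19.6% (SmoM2), 9.98% (Gnas-eKO) and 22.4% (PKI), and since this contrast chose the members nothing is read from their count. Called genes made up 29.7% (SmoM2), 1.63% (Gnas-eKO) and 34.5% (PKI) of those tested (edgeR, adjusted p under 0.05, either direction). The Gnas-eKO share was 11.8% without BCC replicate 2, 0% without Con replicate 1 or 2, 0.0237% without Con replicate 3, and 0.237%, 1.81% and 0.367% without BCC replicates 1, 3 and 4. All 4 members passed the filter on low counts in every model. Cyyr1 did so through its tumour libraries, since 0 of 3 control libraries in SmoM2 and in Gnas-eKO and 1 of 3 in PKI reached the filter's level of 0.505 to 0.515 CPM, and Adgra2 reached it in 1, 2 and 1 of 3. Genes whose mean log2 CPM reached 2 were ranked by rise, a ranking on the contrast that chose the members. In SmoM2 the members had ranks 6 (Cyyr1), 8 (Pi15), 17 (Adgra2) and 38 (Prss35) of 12241 genes. In Gnas-eKO they had ranks 2 (Prss35), 12 (Adgra2), 25 (Cyyr1) and 26 (Pi15) of 12298. In PKI Pi15 and Prss35 had ranks 48 and 62 of 12187. Adgra2 and Cyyr1 lay under that level in PKI, and had ranks 488 and 509 among all 16397 genes tested there.

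Per kilobase of exon, which lets levels of different genes be compared, Pi15 had 61 ± 6.12 CPM per kb in SmoM2 BCC, Prss35 16.2 ± 0.698, Adgra2 3.45 ± 0.368 and Cyyr1 2.77 ± 0.0905 (SD, n = 4 each). In Gnas-eKO BCC the mean of Prss35 (21.7 ± 16.8 CPM per kb) was above that of Pi15 (16.4 ± 9.09), a gap smaller than either SD, and the ratio of Pi15 to Prss35 in CPM, 6.66 to 8.95 in the SmoM2 tumours, was 0.937 to 4.15 in those of Gnas-eKO. Cyyr1 stayed the lowest of the members in PKI BCC, at 0.273 ± 0.0868 CPM per kb. Over control libraries the order was the same in each model, with Pi15 at 0.59 to 0.884 CPM per kb and Cyyr1 at 0.0394 to 0.0477 as group means.

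The size of the rise differed between models by gene. The log2 rise in PKI minus that in SmoM2 was -3.61 (SE 0.46) for Cyyr1, -2.88 (SE 0.56) for Adgra2, -2.09 (SE 0.30) for Pi15 and -0.98 (SE 0.62) for Prss35. In other words the rise of Cyyr1 was 12.2-fold smaller in PKI and that of Prss35 1.97-fold smaller, the latter within 2 SE of no difference. The Prss35 value rests on SmoM2 Con replicate 3: without it the difference was -2.14 (SE 0.34), a rise 4.42-fold smaller in PKI. That of Adgra2 was -2.15 (SE 0.63) without PKI Con replicate 1. Gnas-eKO minus SmoM2 gave -1.56 (SE 0.78) for Pi15, -1.55 (SE 0.83) for Cyyr1, 0.02 (SE 1.40) for Adgra2 and 1.66 (SE 1.08) for Prss35, so that the direction varied and the errors were large. Without Gnas-eKO BCC replicate 2 these were -1.22 (SE 0.38), -1.22 (SE 0.32), 0.38 (SE 0.80) and 1.96 (SE 0.94), and for Prss35 0.50 (SE 1.12) without SmoM2 Con replicate 3. PKI minus Gnas-eKO was -2.89 (SE 1.2) for Adgra2, -2.64 (SE 0.94) for Prss35, -2.05 (SE 0.83) for Cyyr1 and -0.52 (SE 0.79) for Pi15, and without that tumour library -3.26 (SE 0.87), -2.94 (SE 0.74), -2.39 (SE 0.49) and -0.87 (SE 0.38). That of Adgra2 was -2.17 (SE 1.51) without PKI Con replicate 1. These differences carry no test because the same contrasts chose the members; over all genes, the share called different was 24.9% for PKI against SmoM2, 0.175% for Gnas-eKO against SmoM2 and 9.06% for PKI against Gnas-eKO (0.462% and 12% without Gnas-eKO BCC replicate 2).

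**Figure D2:**
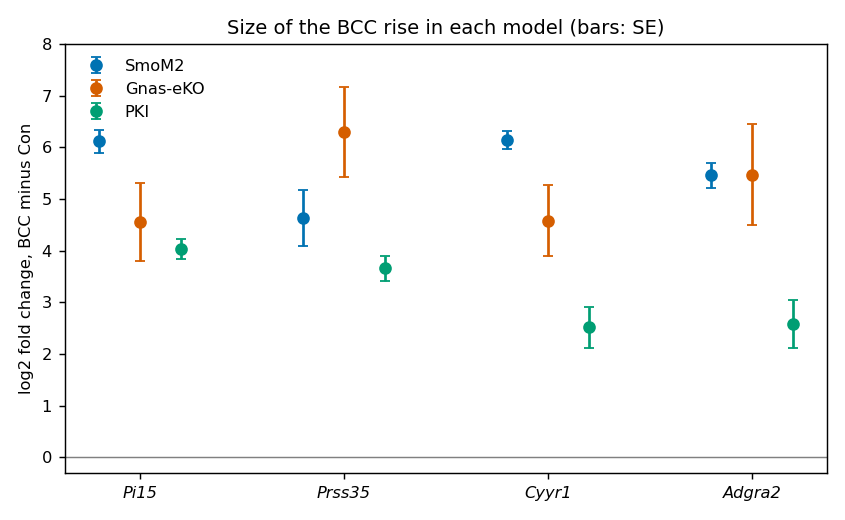
Log2 fold change of BCC over Con for each member (y axis) in SmoM2, Gnas-eKO and PKI, with the SE of the edgeR fit as bars (3 Con and 4 BCC libraries per model). Cyyr1 spans the widest range, from 6.14 in SmoM2 to 2.52 in PKI, and in PKI every member has its smallest value.

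Within Gnas-eKO the 4 tumour libraries split the members into 2 pairs. Pi15 and Cyyr1 were high in BCC replicates 1, 3 and 4 and low in replicate 2, where Pi15 stood at 17.5% and Cyyr1 at 21.4% of the group mean. Prss35 and Adgra2 were high only in replicates 1 and 4 of this group. They stood at 28.4% and 14.7% of the group mean in replicate 2 and at 46% and 40.7% in replicate 3, where Pi15 and Cyyr1 stood at 125% and 109%. Gli1, a transcription factor and target of the Hedgehog pathway, was at 235, 9.65, 281 and 153 CPM in replicates 1 to 4 and so had the pattern of Pi15 and Cyyr1 in being lowest in replicate 2 alone. Ptch1, at 933, 270, 315 and 827 CPM, had the pattern of Prss35 and Adgra2.

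Beside this split, Gnas itself was at 115, 89.5, 51.1 and 65.6 CPM in replicates 1 to 4. The summed level of the fibroblast markers was 201, 579, 94.7 and 287 CPM, most of it Dcn (111, 569, 56.3 and 251 CPM), that of the endothelial markers 10.1, 4.5, 9.9 and 9.23 CPM and that of the leukocyte markers 49.3, 30.7, 29.4 and 20 CPM. The other fibroblast markers summed to 90.7, 9.76, 38.4 and 35.9 CPM. Replicate 2, lowest for all 4 members, was thus highest for Dcn and lowest for the other fibroblast markers and for the endothelial sum, and the part of these cells in the members' levels was not tested. In bulk RNA, fewer cells of a type and less RNA per cell cannot be told apart. Without replicate 2 the mean tumour level in Gnas-eKO was 145 ± 7.11 CPM for Pi15, 92.6 ± 55.6 for Prss35, 11.7 ± 1.42 for Cyyr1 and 31.8 ± 19 for Adgra2 (SD, n = 3), with log2 fold changes of 4.91, 6.61, 4.91 and 5.84.

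**Figure D3:**
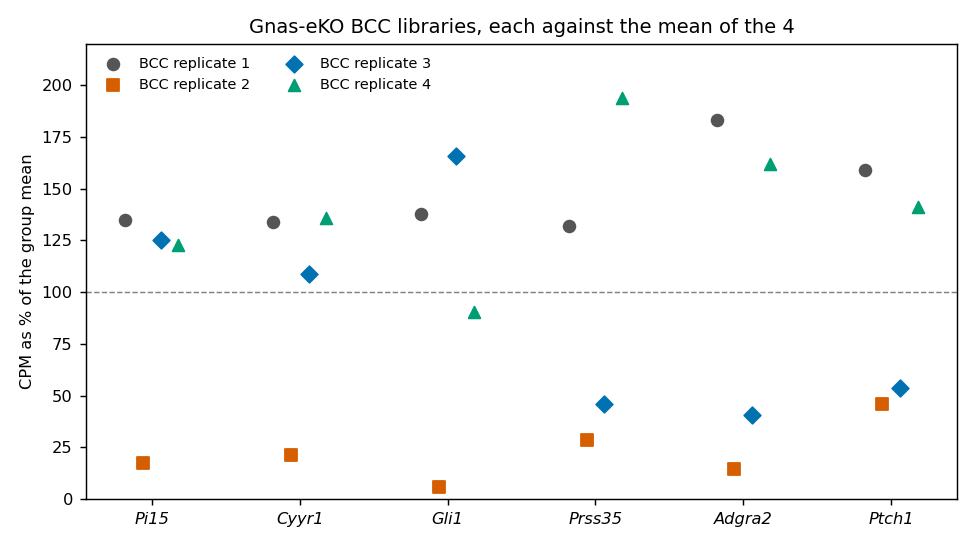
Each of the 4 Gnas-eKO BCC libraries as a percentage of the mean CPM of the group (y axis), for Pi15, Cyyr1, Gli1, Prss35, Adgra2 and Ptch1; the dashed line marks the mean. Replicate 2 is lowest for all 6 genes, while replicate 3 is above the mean for Pi15, Cyyr1 and Gli1 and below it for Prss35, Adgra2 and Ptch1.

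The pairs were also compared as deviations of log2 CPM from the group mean over tumour libraries, as a description of libraries that share depth and batch within a group. Over all 12 BCC libraries Pearson's r was 0.958 for Pi15 with Cyyr1 and 0.943 for Prss35 with Adgra2, against 0.68 for Pi15 with Prss35 and 0.788 for Cyyr1 with Prss35. Without Gnas-eKO BCC replicate 2 (n = 11) these became 0.657, 0.887, -0.021 and 0.513. Over the 8 SmoM2 and PKI tumour libraries alone they were 0.685, 0.673, -0.062 and 0.652, so that outside Gnas-eKO Cyyr1 went with Prss35 about as closely as with Pi15. The cross pairs of Adgra2 were 0.738 with Pi15 and 0.799 with Cyyr1 over 12 libraries, and -0.473 and 0.128 over these 8. Ptch1 had r of 0.932 with Prss35 and 0.923 with Adgra2 over 12 libraries, 0.893 and 0.905 over 11, and 0.714 and 0.568 over the 8 SmoM2 and PKI libraries. By contrast the r of Pi15 with Gli1 fell from 0.957 over 12 to 0.113 over 11 libraries and so rests on replicate 2. Over the 8 SmoM2 and PKI libraries Gli1 had r of 0.087 with Pi15, 0.631 with Cyyr1, 0.88 with Prss35 and 0.683 with Adgra2, so it did not go with Pi15 there.

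Genes with the most similar pattern over all 21 libraries were ranked by Pearson's r of log2 CPM among about 12030 expressed genes. Control and tumour libraries both enter, so the contrast that chose the members enters these values. Nearest to Pi15 were Krt17 (r = 0.969), a keratin of hair follicle and activated epidermis, Nckap5l (0.968), Edn1 (0.967), the endothelin 1 ligand, Ptch1 (0.964) and Mcam (0.961), a cell adhesion molecule. Prss35 was nearest to collagen genes, Col4a1 (0.981), Col27a1 (0.981), Col4a2 (0.979) and Col14a1 (0.978), and to the hair placode factor Foxi3 (0.979). For Cyyr1 the nearest were Creb5 (0.979), a transcription factor, Scnn1b (0.978), a sodium channel subunit, Nlgn2 (0.977), Sms (0.977), which makes spermine, and Rai14 (0.977). Adgra2 was nearest to Slco4a1 (0.981), an organic anion transporter, Nlgn2 (0.979), Mycn (0.978), a Hedgehog target, Ptprk (0.976), a receptor phosphatase, and Gm973 (0.975). Each r is over 21 libraries, and among the members r was 0.914 to 0.965. Without Gnas-eKO BCC replicate 2, the lists of 5 kept 4 genes for Pi15, 5 for Prss35, 2 for Cyyr1 and 3 for Adgra2.

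The same ranking on deviations from the group mean over the 12 BCC libraries gave 6430571L13Rik (r = 0.965), Pla2g3 (0.964) and Sms-ps (0.962) for Pi15, and Vcan (0.978), Col4a2 (0.967) and Synm (0.965) for Prss35. For Cyyr1 it gave Fbn2 (0.965), Inppl1 (0.964) and Pi15 itself (0.958), and for Adgra2 Zfp365 (0.965), Nrp2 (0.964) and Flrt2 (0.95). Sms-ps is by its name a pseudogene of Sms, and reads of such copies may be split between them. Of these 12 genes 0 stayed on the list when Gnas-eKO BCC replicate 2 was left out, so the list rests on that library.

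The other genes of each member's family or pathway were tested in the same fits. In SmoM2 16.2% of 16370 genes tested were called higher and 13.5% lower in BCC (edgeR, adjusted p under 0.05). The shares were 1.46% and 0.165% of 16409 genes in Gnas-eKO, where the spread between tumours was large, and 18.7% and 15.8% of 16397 in PKI.

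Among the CAP family genes other than Pi15, few were expressed: 2, 2 and 4 of 14 were tested in SmoM2, Gnas-eKO and PKI. Crispld1, the neighbour of Pi15 on chromosome 1 and a close relative, was the CAP gene that rose in SmoM2. Its level was 2.07, 1.78 and 4.54 CPM in SmoM2 Con and 29.5, 25.5, 26.2 and 25.9 CPM in SmoM2 BCC, a log2 rise of 3.28 (SE 0.29, adjusted p = 9.51e-05). In Gnas-eKO it had 3.6, 1.51 and 4.09 CPM in Con and 21.3, 2.79, 27.4 and 14.8 CPM in BCC, with replicate 2 inside the control range. The log2 difference of 2.44 (SE 0.70) missed the threshold there (adjusted p = 0.114), and passed it without Gnas-eKO BCC replicate 2 (2.79, adjusted p = 0.00456), by DESeq2 (adjusted p = 0.00203) and in the joint fit (adjusted p = 0.00579). In PKI Crispld1 was at 2.99, 3.73 and 3.72 CPM in Con and 2.46, 1.86, 3.74 and 4 CPM in BCC, which overlapped (-0.19, SE 0.29, adjusted p = 0.645). The difference between the PKI and SmoM2 effects was itself past the threshold (-3.46, SE 0.42, adjusted p = 9.51e-05), whereas Pi15 was raised 16.3-fold in PKI. Glipr2 and Glipr1, of which the latter is known from myeloid cells, were called higher in PKI. Glipr2 went from a mean of 0.122 to 2.3 CPM (adjusted p = 0.00471) and Glipr1 from 0.152 to 1.53 CPM (adjusted p = 0.0204). The control means were at about the level of 3 counts and under the filter's level of 0.509 CPM, which these genes passed through the tumour libraries, so their fitted log2 changes of 4.08 (SE 0.80) and 3.17 (SE 0.86) depend on the prior count. Without PKI Con replicate 1 they became 5.95 and 7.85. The call of Glipr1 was lost without PKI Con replicate 2 or 3 (adjusted p = 0.0601 and 0.0578). Beside these values, the summed leukocyte markers were at 63.3 to 96.6 CPM in PKI BCC and 12 to 30.5 in PKI Con, whose part was not tested. Crispld2 was not called by edgeR in any model, with log2 differences of -1.14, -0.73 and 0.99 (in SmoM2 adjusted p = 0.08, and 0.0478 without SmoM2 Con replicate 2). Single libraries set these values, which on leaving out each library ran from -1.43 to -0.50 (SmoM2), from -1.14 to 0.08 (Gnas-eKO, the latter without Con replicate 1) and from 0.29 to 2.31 (PKI), so no direction is read from them. In Gnas-eKO 0 of 2 CAP genes were called by edgeR, with 1 at an unadjusted p under 0.05 and 1 called by DESeq2.

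Of the genes with a Prss symbol, 4 of 8 tested rose and 2 fell in SmoM2, and 3 of 8 rose and 2 fell in PKI. In Gnas-eKO 0 of 9 were called by edgeR, with 4 at an unadjusted p under 0.05 and 1 called by DESeq2. Prss23, the closest relative of Prss35, rose from 52.9 ± 5.61 to 110 ± 15.6 CPM in SmoM2 (1.07, SE 0.12, adjusted p = 0.000171). It had differences of 0.32 (SE 0.36) in Gnas-eKO and -0.14 (SE 0.11) in PKI that missed the threshold, and its PKI effect was lower than its SmoM2 effect by the test of the difference (-1.21, SE 0.17, adjusted p = 0.000218). Prss22, an epithelial tryptase, rose by 1.88 (SE 0.20) in SmoM2 and 2.18 (SE 0.32) in PKI (adjusted p = 0.000288 and 0.00136). Prss16, a thymic peptidase, rose by 1.96 and 2.42 (adjusted p = 0.00592 and 0.000441). In SmoM2 it was at 0.283 ± 0.0975 CPM in Con, with 0 of 3 libraries at the filter's level, and passed through the tumour libraries. Prss12 (neurotrypsin) rose by 1.38 and 1.2 (adjusted p = 0.0194 and 0.00443). Prss12 in SmoM2 was no longer called without SmoM2 Con replicate 1, 2 or 3 (adjusted p = 0.0731, 0.0591 and 0.0781). Prss53 fell by 1.92 on the log2 scale in SmoM2, from 32 ± 20.2 to 8.35 ± 0.836 CPM (adjusted p = 0.013), with -1.30 without SmoM2 Con replicate 3. The median log2 difference over the Prss genes was 0.92 (SmoM2), 1.24 (Gnas-eKO) and 0.52 (PKI), against 0, 0.02 and 0 over all genes tested.

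The Shisa-like genes related to Cyyr1 had no common direction. In SmoM2 3 of 6 tested rose and 2 fell, in PKI 0 rose and 2 fell, and in Gnas-eKO 0 of 6 were called by edgeR, with 4 at an unadjusted p under 0.05 and 1 called by DESeq2. Shisa2, which retains Fgf and Wnt receptors inside the cell, rose in SmoM2 from 66.8 ± 23.6 to 146 ± 32.3 CPM (1.14, SE 0.27, adjusted p = 0.0202). In PKI it fell from 69.6 ± 22.1 to 33.9 ± 9.04 CPM (-1.02, SE 0.25, adjusted p = 0.0157), and the difference of both effects passed the test (-2.17, adjusted p = 0.00267). The SmoM2 rise of Shisa2 had an adjusted p of 0.0731 without SmoM2 Con replicate 1 and 0.0634 without SmoM2 Con replicate 2. Shisa7 rose in SmoM2 by 2.79 (SE 0.62, adjusted p = 0.00803), from 0.203 ± 0.191 to 1.45 ± 0.433 CPM, with 3.49 without SmoM2 Con replicate 3. It had 0 of 3 SmoM2 control libraries at the filter's level of 0.505 CPM and entered the test there through the tumour libraries. In the same model Wbp1 rose by 0.55 (SE 0.10, adjusted p = 0.0025). Vopp1 fell by 0.39 in SmoM2 and by 0.59 in PKI on the log2 scale (adjusted p = 0.0021 and 0.00193), the SmoM2 call being lost in the joint fit of 21 libraries (adjusted p = 0.0653). The medians were 0.29, -0.12 and -0.18, against 0, 0.02 and 0 over all genes.

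Adhesion G protein-coupled receptors other than Adgra2 were called in both directions, with 3 of 17 higher and 5 lower in SmoM2, 1 of 19 higher in Gnas-eKO, and 4 of 20 higher and 4 lower in PKI. The higher calls in SmoM2 and PKI were near the shares over all genes, 16.2% and 18.7%. The shares called lower over all genes were 13.5% and 15.8%. The list's median was near that of all genes in SmoM2 and PKI (-0.07 and 0.08) and 0.40 in Gnas-eKO. Adgrg2, an orphan receptor best known from the epididymis, was the member of this list called higher in all 3 models. It rose from 2.99 ± 0.566 to 16.6 ± 1.27 CPM in SmoM2 (2.48, adjusted p = 5.73e-06), from 2.54 ± 0.991 to 17.2 ± 6.38 in Gnas-eKO (2.77, adjusted p = 0.0215) and from 3.38 ± 0.78 to 9.49 ± 1.99 in PKI (1.5, adjusted p = 0.00163). Adgra3, the closest relative of Adgra2 among those tested (Adgra1 did not pass the filter), rose by 1.05 (SE 0.08) in SmoM2 and 0.72 (SE 0.09) in PKI (adjusted p = 1.84e-05 and 0.000684). In Gnas-eKO its difference of 1.44 (SE 0.29) had an adjusted p of 0.0533, of 0.000417 without Gnas-eKO BCC replicate 2, of 0.000105 by DESeq2 and of 0.00018 in the joint fit. The Gnas-eKO call of Adgrg2 was lost without Con replicate 1, 2 or 3 or BCC replicate 1 of that model (adjusted p = 0.143, 0.146, 0.105 and 0.0629).

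The partners of Adgra2 were both of its known ligands, Reck, the Frizzled receptors, the co-receptors Lrp5 and Lrp6 and the Dishevelled genes. Of 17 tested, 7 rose and 5 fell in SmoM2, 3 rose in Gnas-eKO, and 4 rose and 1 fell in PKI, with medians of 0.24, 0.20 and 0.02. Among the receptors, Fzd1 rose by 0.89 in both SmoM2 and PKI (adjusted p = 0.000423 and 0.000398), Fzd7 rose in SmoM2 by 1.04 and Fzd5 in PKI by 1.45 (adjusted p = 4.36e-05 and 8.15e-05), and Fzd10 fell by 1.14 in SmoM2 (adjusted p = 1.07e-05). Wnt7b was called higher in all 3 models. Its level was 50.3, 51.5 and 58.6 CPM in SmoM2 Con and 280, 262, 249 and 250 CPM in SmoM2 BCC, a log2 rise of 2.30 (SE 0.08, adjusted p = 1.94e-07). In Gnas-eKO it was 57.5, 50.2 and 52.2 CPM in Con and 116, 181, 115 and 198 CPM in BCC (1.53, SE 0.22, adjusted p = 0.0233). In PKI it was 55.5, 67.1 and 56.5 CPM in Con and 74.8, 72.5, 82.2 and 81.9 CPM in BCC (0.40, SE 0.09, adjusted p = 0.0101), a call lost in the joint fit of 21 libraries (0.38, adjusted p = 0.0649). No tumour library overlapped the controls of its model, and unlike the members Wnt7b was not lowest in Gnas-eKO BCC replicate 2. Its PKI effect was smaller than its SmoM2 effect (-1.90, SE 0.12, adjusted p = 2.73e-07) and its Gnas-eKO effect (-1.13, SE 0.24, adjusted p = 0.0135; -1.04, adjusted p = 0.0157, without Gnas-eKO BCC replicate 2). The Gnas-eKO call of Wnt7b was lost without Con replicate 1, 2 or 3 of that model (adjusted p = 0.149, 0.16 and 0.142).

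Reck had low levels throughout, with 1.42, 0.918 and 0.865 CPM in SmoM2 Con and 3.84, 2.99, 3.47 and 2.72 CPM in SmoM2 BCC (1.61, SE 0.27, adjusted p = 0.00176). In Gnas-eKO it was 1.42, 1.17 and 1.02 CPM in Con and 3.42, 2.52, 3.8 and 4.01 CPM in BCC. The groups did not overlap, and the log2 rise of 1.52 (SE 0.30) was just past the threshold (adjusted p = 0.0485). That call was lost on leaving out any library of Gnas-eKO except BCC replicate 2, with adjusted p of 0.18, 0.218 and 0.189 without Con replicates 1 to 3, and 0.115, 0.0581 and 0.135 without BCC replicates 1, 3 and 4. In PKI, Con libraries had 1.27, 0.568 and 0.781 CPM and BCC libraries 0.821, 0.826, 1.82 and 1.92 CPM, which overlapped (0.62, SE 0.45, adjusted p = 0.315). Wnt7a, the other ligand, had group means of 0.45 to 1.86 CPM and fell in SmoM2 by 2.02 on the log2 scale (SE 0.37, adjusted p = 0.00277), with -0.56 in Gnas-eKO and -1.85 in PKI (adjusted p = 0.726 and 0.073; in PKI 0.0422 by DESeq2, 0.038 without PKI Con replicate 3 and 0.0232 without PKI BCC replicate 4). On leaving out each library the PKI value ran from -2.56 to -0.91, the latter without PKI Con replicate 1 (adjusted p = 0.371), and the Gnas-eKO value from -1.14 to 0.26, with its sign turned without Gnas-eKO Con replicate 3.

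**Figure D4:**
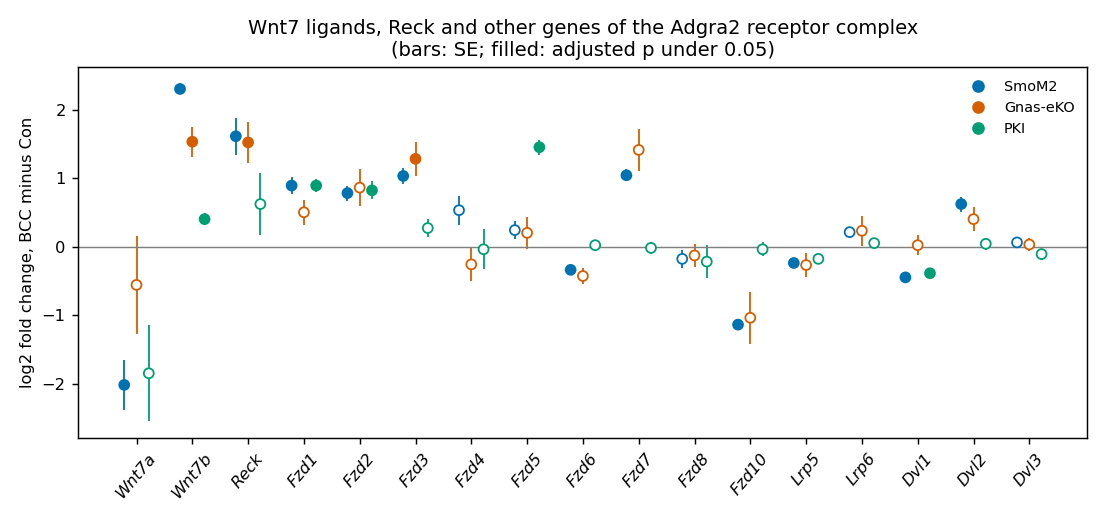
Log2 fold change of BCC over Con (y axis) for 17 genes of the Adgra2 and Reck receptor complex in SmoM2, Gnas-eKO and PKI; bars are the SE of the edgeR fit and filled circles have an adjusted p under 0.05. Wnt7b is filled in all 3 models (its PKI call was lost in the joint fit), Reck in SmoM2 and Gnas-eKO, and Wnt7a lies below 0.

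Adgra2 is known as a gene of blood vessels, so the endothelial markers were read beside it. Their summed level over 9 genes was 1.84 to 6.08 CPM in control libraries and 4.5 to 10.1 CPM in tumour libraries. Of these markers Cdh5, Kdr, Cldn5 and Emcn were at or under 0.822 CPM in every library, and Cldn5 and Emcn were at 0 in all 3 SmoM2 Con libraries. Kdr had lower means in BCC than in Con, at 0.212 and 0.277 CPM (SmoM2), 0.251 and 0.294 CPM (Gnas-eKO) and 0.191 and 0.229 CPM (PKI), within their SDs, and so did Emcn (0.0257 and 0.0907 CPM) and Cldn5 (0.104 and 0.22 CPM) in PKI. Tie1 means were lower in BCC in Gnas-eKO and PKI. Means were higher in BCC for Emcn and Cldn5 in SmoM2 and Gnas-eKO and for Tie1 in SmoM2. They were higher in all 3 models, in the same order, for Cdh5 (0.151 and 0.0525, 0.511 and 0.171, 0.184 and 0.122 CPM). The same held for Vwf (2.31 and 0.843, 1.44 and 0.65, 2.51 and 0.603 CPM) and Tek (0.827 and 0.142, 0.532 and 0.249, 0.418 and 0.229 CPM). Of the 9 markers 4, 4 and 3 passed the filter, of which edgeR called 3 higher (SmoM2), 1 (Gnas-eKO) and 2 (PKI) and none lower, and DESeq2 called as many, with median log2 differences of 1.94, 1.13 and 2.02. The lowest counts on leaving out 1 library were 1 (SmoM2), 0 (Gnas-eKO) and 2 (PKI). Pecam1 was not called by edgeR in any model (0.78, 0.66 and 0.69; adjusted p = 0.091, 0.371 and 0.0874). Egfl7, the marker called in all 3 models, had log2 rises of 3.34 (SmoM2), 2.49 (Gnas-eKO) and 2.5 (PKI) (adjusted p = 0.000156, 0.041 and 0.00848). It reached the filter's level in 0, 2 and 1 of 3 control libraries of these models and so passed through the tumour libraries. Within Gnas-eKO BCC the endothelial sum was at 10.1, 4.5, 9.9 and 9.23 CPM in replicates 1 to 4. Adgra2 was at 45.3, 3.65, 10.1 and 40 CPM in the same libraries. Both were lowest in replicate 2, and in replicates 1, 3 and 4 the sum was about level while Adgra2 varied. Fibroblast markers other than Dcn summed to 2.78 to 15.4 CPM in Con and 9.76 to 90.7 CPM in BCC, and Dcn rose by 4.4 (SmoM2), 4.07 (Gnas-eKO) and 2.26 (PKI) (adjusted p = 0.000108, 0.0485 and 0.00332). Both Gnas-eKO calls were lost without Con replicate 1, 2 or 3 or BCC replicate 1 or 4 of that model, with adjusted p of 0.0889 to 0.2 for Egfl7 and 0.0889 to 0.223 for Dcn. The part of such cells in the rise of the members was not tested.

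Hedgehog targets and genes of the hair germ, the embryonic structure that BCC resembles, were set beside the members. Of 10 Hedgehog target genes tested, 6 rose and 1 fell in SmoM2, 4 rose in Gnas-eKO, and 5 rose and 2 fell in PKI, with median log2 differences of 3.67, 2.00 and 0.62. Ptch1 rose by 4.70 (SmoM2), 4.14 (Gnas-eKO) and 2.99 (PKI) (adjusted p = 3.5e-07, 0.0172 and 4.8e-05), Mycn by 4.54, 4.14 and 2.48 (adjusted p = 0.000143, 0.0206 and 0.000489) and Gli2 by 3.54, 2.60 and 1.31 (adjusted p = 3.86e-08, 0.00699 and 0.00521). In Gnas-eKO the calls of Ptch1 and Mycn were lost without Con replicate 1, 2 or 3 (adjusted p = 0.105 to 0.148), that of Gli2 without Con replicate 1 or 2 (adjusted p = 0.0714 and 0.0763), and that of Mycn also without BCC replicate 1 (adjusted p = 0.0578). The PKI effect was below the SmoM2 effect by the test of the difference for Gli2 (-2.23, adjusted p = 0.000126), Mycn (-2.06, adjusted p = 0.00636) and Ptch1 (-1.71, adjusted p = 0.000268).

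All 11 hair germ genes tested rose in SmoM2, 3 of 11 rose in Gnas-eKO and 8 of 12 in PKI, with medians of 1.79, 1.59 and 1.34. Foxi3, a placode transcription factor, rose by 5.37, 5.66 and 3.29 (adjusted p = 1.15e-05, 0.0143 and 0.000605), and its Gnas-eKO call was lost without Con replicate 1, 2 or 3 (adjusted p = 0.132, 0.141 and 0.105). Lgr5, a follicle stem cell receptor, rose by 2.99 in SmoM2 and 2.87 in Gnas-eKO (adjusted p = 1.12e-05 and 0.0263), and in PKI by 0.49 (adjusted p = 0.0389), a call lost without PKI Con replicate 2 or 3 or PKI BCC replicate 1, 3 or 4 (adjusted p = 0.118, 0.14, 0.0855, 0.065 and 0.0792) and in the joint fit of 21 libraries (0.48, adjusted p = 0.266). The Gnas-eKO call of Lgr5 was lost without any library of that model except BCC replicate 2 (adjusted p = 0.0557 to 0.16). The PKI effect of Lgr5 was below those of SmoM2 (-2.5, adjusted p = 2.55e-05) and Gnas-eKO (-2.37, adjusted p = 0.0107; -2.66, adjusted p = 5.41e-05, without Gnas-eKO BCC replicate 2). Lef1, a transcription factor of Wnt signalling, went the other way. Its Con and BCC levels were 3.63 ± 2.39 and 9.62 ± 1.86 CPM (SmoM2), 4.5 ± 1.69 and 9.61 ± 2.05 CPM (Gnas-eKO) and 3.24 ± 1.89 and 27.5 ± 2.6 CPM (PKI; SD, n = 3 and 4). Its log2 difference was 1.43 in SmoM2 (adjusted p = 0.0448, a call lost without SmoM2 Con replicate 2 or any SmoM2 BCC library, at 0.0597 to 0.127, and at 0.0757 without the filter on low counts), 1.1 in Gnas-eKO (adjusted p = 0.108; 0.0495 without BCC replicate 2 and 0.0132 by DESeq2) and 3.07 in PKI (adjusted p = 0.000422). The SmoM2 value was 2.03 without SmoM2 Con replicate 3, and the PKI value 3.66 without PKI Con replicate 1. The PKI effect of Lef1 was above that of Gnas-eKO (1.98, SE 0.46, adjusted p = 0.0179), and its difference from SmoM2 missed the threshold (1.64, SE 0.58, adjusted p = 0.0569). In Gnas-eKO the called genes of all 7 lists numbered 11, and 0 without Con replicate 1, 0 without Con replicate 2, 1 without Con replicate 3, 5 without BCC replicate 1, 7 without BCC replicate 4 and 35 without BCC replicate 2.

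Genes beside the members in the genome were examined to see whether whole neighbourhoods differed. Of 24 neighbours, taken as the 3 nearest on each side and any overlapping gene, 17 were expressed enough to test. In SmoM2 4 rose and 2 fell, in Gnas-eKO 1 rose, and in PKI 1 rose and 4 fell. Over all genes tested, 29.7% (SmoM2), 1.63% (Gnas-eKO) and 34.5% (PKI) were called in either direction, and nothing is read from the counts of so few neighbours. Adamts1, a secreted metalloproteinase gene whose lowest coordinate lies 372.3 kb above that of Cyyr1, rose in all 3 models. It went from 14.2 ± 2.22 to 130 ± 28.8 CPM in SmoM2 (3.20, SE 0.20, adjusted p = 1.84e-05), from 18.7 ± 5.88 to 148 ± 86.9 in Gnas-eKO (3.00, SE 0.59, adjusted p = 0.0494) and from 11.8 ± 0.757 to 96 ± 16.8 in PKI (3.03, SE 0.15, adjusted p = 2.6e-05). Its Gnas-eKO call was lost without any library of that model except BCC replicate 2 (adjusted p = 0.0874 to 0.221). App, the amyloid precursor gene 471.8 kb from Cyyr1 on the other side, was at 953 ± 13.6 and 963 ± 7.99 CPM in SmoM2 Con and BCC (0.03, SE 0.06). Next to Prss35, Me1 rose in SmoM2 by 0.75 (adjusted p = 0.000138) and Cyb5r4 fell by 0.73 in SmoM2 and 0.37 in PKI (adjusted p = 0.00194 and 0.0252), the PKI call being lost without PKI Con replicate 2 or 3 (adjusted p = 0.0884 and 0.0896). Near Adgra2, Erlin2 fell by 0.30 in SmoM2 and 0.49 in PKI (adjusted p = 0.00409 and 0.0014), and Plpbp and Rab11fip1 fell by 0.42 and 0.80 in PKI (adjusted p = 0.00816 and 0.000625). Rab11fip1 missed the threshold of the edgeR test in SmoM2 (-0.59, adjusted p = 0.0802; 0.0234 without SmoM2 Con replicate 1) and was called there by DESeq2 (adjusted p = 0.0133) and in the joint fit (adjusted p = 0.0353).

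**Figure D5:**
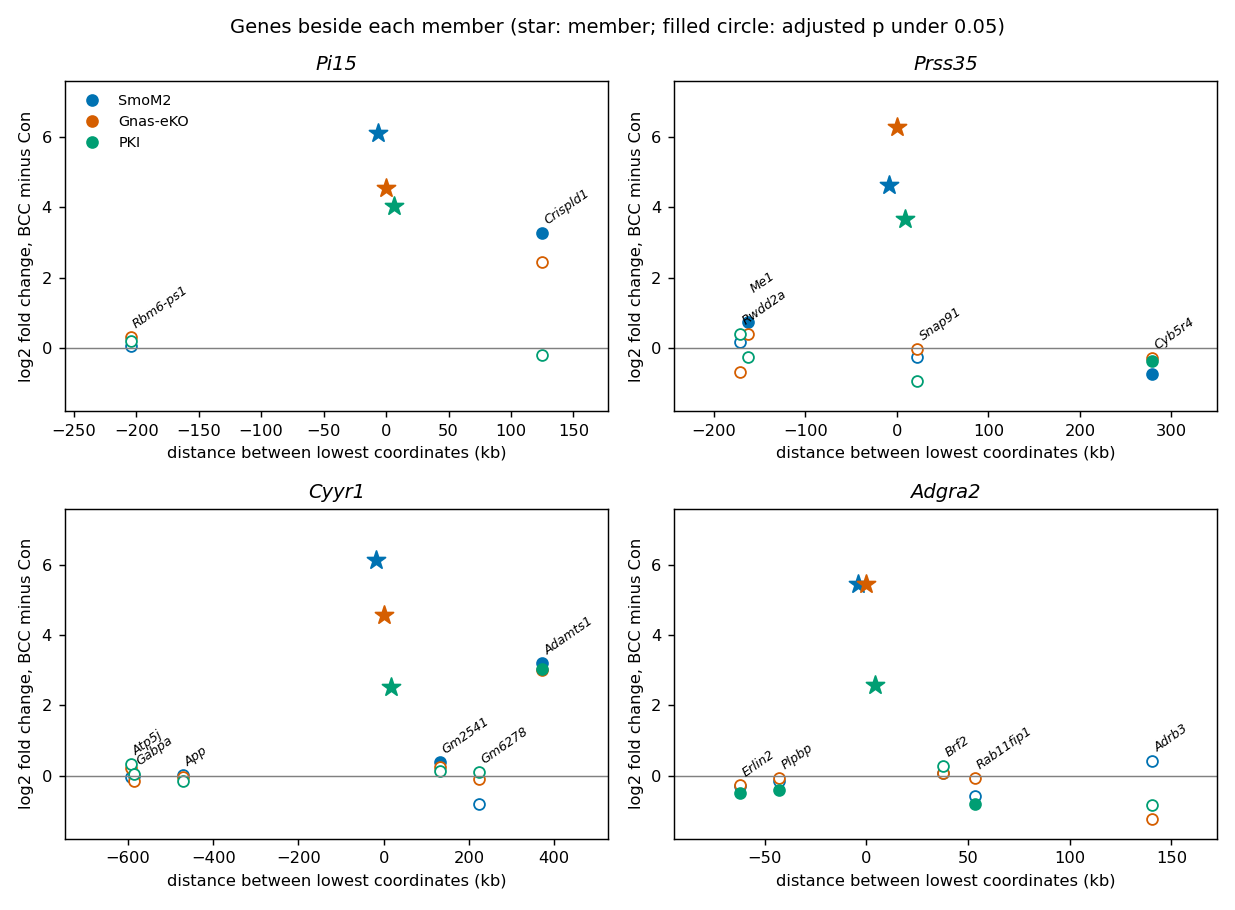
Log2 fold change of BCC over Con (y axis) for tested neighbours of each member against the distance between lowest coordinates in kilobases (x axis); stars are the members, drawn slightly apart, and filled circles have an adjusted p under 0.05. Crispld1 beside Pi15 and Adamts1 beside Cyyr1 have the largest rises, Crispld1 in SmoM2 (3.28) and Gnas-eKO (2.44) and Adamts1 in all 3 models (3.20, 3.00 and 3.03).

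Overlapping genes could take reads from a member or give reads to it, since the use of strand in counting is not given in the sources used here. Gm28154, an antisense gene over 54.6% of the span of Pi15, was at 0 to 0.321 CPM in every library. Gm2541, a pseudogene on the same strand that shares 165 bases with Cyyr1, had group means of 10.6 to 13.7 CPM. It rose in SmoM2 by 0.38 (SE 0.12, adjusted p = 0.0382), a call lost without SmoM2 Con replicate 1 or 2 or SmoM2 BCC replicate 1, 2 or 3 (adjusted p = 0.0906, 0.125, 0.0916, 0.0839 and 0.0644). Brf2, on the opposite strand with 73 bases shared with Adgra2, had group means of 7.06 to 9.53 CPM and log2 differences of 0.07, 0.07 and 0.28 that were not called.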

How the data were processed

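RNA of mouse tail keratinocytes was sequenced from a stranded mRNA library kit, per the labels' protocols, and each library is taken as 1 mouse sample; p-values measure the spread between these libraries. The submitters' processing notes name bcl2fastq 2.20, cutadapt 1.18, STAR 2.7.0f, Partek and the build mm10, without roles or order. The authors deposited estimated counts per gene, of which 32.3% are not whole, with at least 10 counts per gene over the 21 libraries, and a second table of normalized signal, which the authors deposited as each count times a factor per library plus 0.001.

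Rounded counts entered edgeR 4.0.16 (R 4.3.3). In each model BCC was compared with Con in 7 libraries (filterByExpr by group, TMM scaling, robust quasi-likelihood test, Benjamini-Hochberg over all genes tested, calls at an adjusted p under 0.05). The SE is the absolute log2 fold change over the square root of F. Differences between models were interaction terms over 14 libraries. CPM used 1 TMM scaling of all 21 libraries. The fits were run on simulated data with known changes, and no result is read from that run here. Its changed genes left out those of lowest level and none of its libraries deviated from its group, so it does not cover such cases. Over the 27 pairs of libraries within groups, the chi-square of counts was at least 8.93 times its degrees of freedom, so each library counted as a separate replicate. Of 23713 gene names 23009 were found in GENCODE M21, and 22786 of these have a table end 1 base beyond that of GENCODE.

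The 4 members, the 7 gene lists (142 genes) and the 8 marker lists were chosen with earlier results of these data known. Named genes were the members, the altered genes and Ptch1; for each member the 5 genes of highest r over 21 libraries and the 3 of highest r over tumour deviations (prior count 2); list genes called in all 3 models, otherwise up to 4 of largest called change; fixed relatives; overlapping and called neighbour genes. One result under this rule is left out of the text. Gli1, Lef1, App, Egfl7, Dcn and the Frizzled genes were named after their values were seen. The alternatives were DESeq2 1.42.0, its size factors in edgeR, no filter, a joint fit, the replicate number as a block, each library left out, the deposited normalized signal and another prior count. The precision of low values is limited by counts; floors of 3 counts cover counting error only.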

Additional observations from a re-analysis of the deposited data

Results flagged for a closer look

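Pi15 in Gnas-eKO BCC stands out because 1 library lay far from the other 3, with a gap of 0.898 of the group's range between replicate 2 (19.9 CPM) and the next (140 CPM). This describes the libraries and is no test of Pi15, whose tumour levels were used to choose it. It was 1 of 24 tumour groups examined (the members, Smo, Gnas, Pkia and Ptch1 in 3 models), and chance flags about 1 group in 20.

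The other results stand out because the BCC effect differed between models by the edgeR interaction test, of which 34 or 35 named genes were tested per pair of models. Values are differences of log2 fold changes. Between PKI and SmoM2, the PKI effect was lower for Crispld1 (-3.46, adjusted p = 9.51e-05), Lgr5 (-2.5, adjusted p = 2.55e-05), Shisa7 (-2.34, adjusted p = 0.0422), Gli2 (-2.23, adjusted p = 0.000126), Shisa2 (-2.17, adjusted p = 0.00267) and Foxi3 (-2.08, adjusted p = 0.0176). It was also lower for Mycn (-2.06, adjusted p = 0.00636), Wnt7b (-1.90, adjusted p = 2.73e-07), Ptch1 (-1.71, adjusted p = 0.000268), Prss23 (-1.21, adjusted p = 0.000218), Me1 (-1, adjusted p = 0.00732), Adgrg2 (-0.97, adjusted p = 0.0199) and Wbp1 (-0.43, adjusted p = 0.0372). Among the altered genes the same difference was -1.51 for Pkia (adjusted p = 0.00939), -1.02 for Smo (adjusted p = 4.51e-05) and -0.42 for Gnas (adjusted p = 0.00506). These are 16 of 35 named genes, beside 24.9% called over all genes. On leaving out each of the 14 libraries in turn, chosen after seeing the data, the call was lost in 11 fits for Shisa7 (adjusted p = 0.0524 to 0.0757), in 9 for Wbp1 (adjusted p = 0.0502 to 0.12), in 2 for Adgrg2 (adjusted p = 0.052 and 0.0698, without SmoM2 Con replicate 3 or PKI Con replicate 3) and in 2 for Foxi3 (adjusted p = 0.0538 and 0.0657, without SmoM2 Con replicate 1 or PKI Con replicate 1). The other 12 calls were not lost in any of these fits.

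Between PKI and Gnas-eKO, the PKI effect was lower for Lgr5 (-2.37, adjusted p = 0.0107), Shisa2 (-1.56, adjusted p = 0.0168), Gli2 (-1.29, adjusted p = 0.029), Pkia (-1.17, adjusted p = 0.0446) and Wnt7b (-1.13, adjusted p = 0.0135), and higher for Gnas (1.36, adjusted p = 0.011) and Lef1 (1.98, adjusted p = 0.0179), beside 9.06% over all genes. Without Gnas-eKO BCC replicate 2 these were -2.66 (Lgr5), -1.51 (Shisa2), -1.37 (Gli2), -1.21 (Pkia), -1.04 (Wnt7b), 1.41 (Gnas) and 1.88 (Lef1), with adjusted p of 5.41e-05, 0.0208, 0.0216, 0.0402, 0.0157, 0.00898 and 0.0212. The call was lost in 7 of 14 such fits for Gli2 (adjusted p = 0.051 to 0.0843) and in 11 of 14 for Pkia (adjusted p = 0.0515 to 0.121), for Lef1 without Gnas-eKO Con replicate 1 or PKI Con replicate 3 (adjusted p = 0.0537 and 0.0542), and in none for the other 4 genes. Between Gnas-eKO and SmoM2, Gnas differed (-1.78, adjusted p = 0.017), beside 0.175% over all genes. Without Gnas-eKO BCC replicate 2 it was -1.84 (adjusted p = 0.0149), and the call was lost without SmoM2 Con replicate 2 or 3 or Gnas-eKO Con replicate 1, 2 or 3 (adjusted p = 0.074, 0.06, 0.0509, 0.0554 and 0.0531).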

How the results depend on the processing

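Over the alternatives, 368 values of the members stayed within 1 SD between replicates and 16 moved. No rise changed direction; the difference between the Adgra2 rises in Gnas-eKO and SmoM2, 0.02, came to -0.83 with the replicate block. On the authors' normalized signal, as log2(value + 1), a scale that by construction shrinks the folds of low genes, the rises came out smaller: Cyyr1 4.26 and Adgra2 3.86 in SmoM2; Prss35 4.94, Cyyr1 2.66 and Adgra2 3.51 in Gnas-eKO; and, for PKI, 3.71 for Pi15, 3.04 for Prss35, 1.24 for Cyyr1 and 1.48 for Adgra2. As a difference of mean log2 CPM with prior count 2, chosen after seeing the data, Cyyr1 in SmoM2 was 5.78. Leaving out each library gave rises of 5.91 to 6.34 (Pi15), 4.21 to 5.81 (Prss35), 5.97 to 6.31 (Cyyr1) and 5.16 to 5.79 (Adgra2) in SmoM2; 4.27 to 5.01, 5.76 to 6.61, 4.39 to 4.91 and 5.01 to 5.84 in Gnas-eKO; and 3.89 to 4.14, 3.53 to 3.78, 2.33 to 2.77 and 2.30 to 3.29 in PKI. Leaving out each library in the differences between models was chosen after seeing the data: PKI minus SmoM2 was -2.14 to -0.55 for Prss35 and -3.21 to -2.15 for Adgra2, and over the named genes 49 of these fits lost a call and 21 gained one.

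Counts of calls moved mainly in Gnas-eKO. Of all genes 267 were called there by edgeR, 1535 by DESeq2, 2644 in the joint fit, and 0 to 1910 on leaving out a library. List genes called were 11, with 27 by DESeq2, 34 in the joint fit and 0 to 35 on leaving out a library. The alternatives for neighbours were chosen after seeing the data: 1 was called in Gnas-eKO, with 2 by DESeq2 and in the joint fit, 0 with DESeq2 size factors and 0 without the filter, and 0 to 2 on leaving out a library. Leave-one-out counts were 3613 to 4627 genes, 47 to 51 list genes and 5 to 8 neighbours in SmoM2, and 4057 to 5466, 33 to 40 and 4 to 6 in PKI. Of the values for single named genes 1080 kept their side of the threshold, 90 fell below it and 37 passed it.

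Replicate numbers did not pair the samples: over 9 comparisons of same-numbered deviations r was -0.111 to 0.242, 3 were over 0.1, and 2 of 9 libraries correlated best with their own number. A fit with that number as a replicate block called 3428 genes in SmoM2, 135 genes and 6 list genes in Gnas-eKO, and 5988 genes in PKI. With it Prss16, Prss12, Shisa7, Shisa2 and Gm2541 were not called in SmoM2 (adjusted p = 0.0505, 0.0617, 0.0635, 0.0981 and 0.0707), nor Mycn, Lgr5 and Reck in Gnas-eKO (0.0605, 0.0577 and 0.155), while Crispld2, Wnt7a and Pkia were called in PKI (0.0132, 0.0127 and 0.0494). Its rises for Pi15, Prss35, Cyyr1 and Adgra2 were 6.20, 4.83, 6.14 and 5.51 (SmoM2), 4.17, 5.66, 4.11 and 4.65 (Gnas-eKO) and 4.11, 3.52, 2.5 and 2.41 (PKI). Control levels of Cyyr1 and Adgra2 rest on 5 to 19 counts per library, which limits their folds more than those of Pi15.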

Other observations

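One control library had the highest control level for several of the genes raised in tumours, a pattern noticed after the values were seen. For Gli1, Ptch1, Mycn, Col4a1 and Crispld1 its lead over the next control library was small. The share of all genes that are highest in that library was not counted. SmoM2 Con replicate 3 had the highest level among the 9 control libraries for Prss35 (4.81 CPM, against 0.335 to 1.92 in the other 8), Gli1 (16.6 against 4.75 to 14.2), Ptch1 (42.9 against 30 to 40.1), Mycn (7.95 against 2.76 to 6.94) and Col27a1 (4 against 0.975 to 2.22). The same held for Col14a1 (14.7 against 2.16 to 10.5), Col4a1 (33 against 12.1 to 31.7) and Crispld1 (4.54 against 1.51 to 4.09). Of the other tumour-related genes read in the same way, Gli2, Lgr5, Lhx2, Krt17 and Dcn were not highest there, and Sox9 was lowest there (65.9 against 85.3 to 111). Pi15 did not share this, with 4.11 CPM in that library and 6.34 and 7.92 in the other SmoM2 controls. Cyyr1 (0.433 against 0.276 and 0.344) and Adgra2 (0.649 against 0.276 and 0.459) were highest there within SmoM2 Con but not among the 9 control libraries, since Cyyr1 reached 0.568 in PKI Con replicate 2 and Adgra2 0.963 in PKI Con replicate 1. Foxi3 was at 1.57 CPM there and at 1.82 in PKI Con replicate 1. The levels of Prss35, Gli1, Ptch1, Mycn, Col27a1, Col14a1, Crispld1, Pi15, Cyyr1, Adgra2 and Foxi3 in SmoM2 Con replicate 3 were below those of every SmoM2 tumour library, and no test was made. Fibroblast markers other than Dcn summed to 3.49, 4.93 and 12.1 CPM in SmoM2 Con replicates 1 to 3, and Dcn was at 22.9, 12.2 and 27.7 CPM. Both were higher in PKI Con replicate 1, at 15.4 and 28.3 CPM. The part of such cells in this pattern was not tested.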
